A study of Mus musculus with 3 samples.

Results

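The genes described here are 10 components and targets of the Hippo-YAP pathway: the coactivators Yap1 (encoding YAP) and Wwtr1 (encoding TAZ), their DNA-binding partner Tead1, the regulators Lats2, Amotl2 and Ajuba, and the target genes Cyr61, Ctgf, Ankrd1 and Axl. They were taken by name from a gene expression table of the ST2 line (stromal cells from mouse bone marrow), and each was found on exactly 1 of its 51826 rows. Cyr61 and Ctgf are the older symbols of Ccn1 and Ccn2. Messenger RNA was measured in 3 libraries, with 1 library in each group, all from ST2 cells co-transfected using lipofectamine 3000. Control siRNA was given to 2 of the cultures, together with empty vector in the control cells and with a NELL2 construct in the overexpression cells (NELL2 cells). The third culture was given Fn1 siRNA with empty vector to knock Fn1 down (siFn1 cells), and siRNA was used at 30 nM in each. NELL2 is a secreted glycoprotein, and Fn1 encodes fibronectin, a matrix protein that cells bind through integrins. The study asked which signalling lies downstream of NELL2 and Fn1.

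YAP and TAZ do not bind DNA themselves. In the nucleus they join TEAD factors at the promoters and enhancers of genes for matrix proteins, cytoskeletal regulators and growth signals, while the Hippo kinases MST and LATS phosphorylate them and keep them in the cytoplasm, bound to 14-3-3 proteins. Adhesion to a stiff matrix, cell spreading and actin tension are known to favour nuclear YAP and TAZ, and in stromal cells this axis is known to bear on the choice between bone and fat. The level of Yap1 or Wwtr1 mRNA does not report where the protein is, so the target genes are the usual transcript readout.

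TEAD factors recognise the 6 letters GGAATG, or CATTCC on the other strand, and these letters were searched in the 250 bases before each RefSeq gene start (GRCm38.p6). Of the 10 genes, 8 had a promoter entry, Ctgf and Tead1 being the others. The letters were found for 7 of these 8 genes, namely Cyr61, Ankrd1, Axl, Amotl2, Ajuba, Yap1 and Wwtr1, and not for Lats2 in either of its 2 entries. By promoter entry, 8 of 10 (80%) held them, against 12.6% of all 32851 promoters and 10.7% of the 12044 promoters of genes at 1 FPKM or more in at least 1 library. The genes were picked as known TEAD targets and regulators, so the share is a description. Neither the AP-1 letters TGANTCA nor a CArG box (the SRF motif) was found in the window of any of the 8 genes. Of all genes with an entry, 7.82% and 1.62% held them, so 0 of 8 is near these shares. A match or its absence concerns only these letters in this window.

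The promoter stretches that hold the TEAD letters are shown for the target genes first and then for the regulators, 5′ to 3′ on the strand of the gene, with the TEAD letters in capitals and up to 25 bases on each side (12 for Ankrd1 and Amotl2). They lie wholly before the RefSeq start (GRCm38.p6), which is not always the outermost start in GENCODE M21, the source of the gene positions given further on. The Ankrd1 and Amotl2 stretches overlap exons of these genes in GENCODE M21. The stretches are at chr3:145650058-145650113 (minus strand) for Cyr61, chr19:36120037-36120066 and chr19:36119950-36119979 (minus strand) for Ankrd1, chr7:25788936-25788983 (minus strand) for Axl, chr9:102717727-102717756 (plus strand) for Amotl2, chr14:54577795-54577872 (minus strand) for Ajuba, chr9:8004707-8004762 (minus strand) for Yap1 and chr3:57576016-57576071 (minus strand) for Wwtr1.
Cyr61: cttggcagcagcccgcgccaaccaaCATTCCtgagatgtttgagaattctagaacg
Ankrd1, upstream site: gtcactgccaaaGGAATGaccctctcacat
Ankrd1, downstream site: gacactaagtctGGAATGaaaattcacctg
Axl: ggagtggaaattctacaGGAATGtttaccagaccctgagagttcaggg
Amotl2: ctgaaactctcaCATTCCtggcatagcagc
Ajuba: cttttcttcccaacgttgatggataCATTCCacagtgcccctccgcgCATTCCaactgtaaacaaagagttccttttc
Yap1: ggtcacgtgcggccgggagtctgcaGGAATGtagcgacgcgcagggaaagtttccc
Wwtr1: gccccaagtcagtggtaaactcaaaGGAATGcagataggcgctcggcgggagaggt

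Counted from the RefSeq start of the entry, the first letter of the Amotl2 match lay 65 bases before it and that of the Axl match 233 bases before it, and the other matches lay between. Ankrd1 and Ajuba each held a pair of matches. The Ankrd1 matches began 210 and 123 bases before the start, and the Ajuba matches began 186 and 164 bases before it. Wwtr1 had 2 entries with starts a short distance apart, and both contain the same match.

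**Figure D1:**
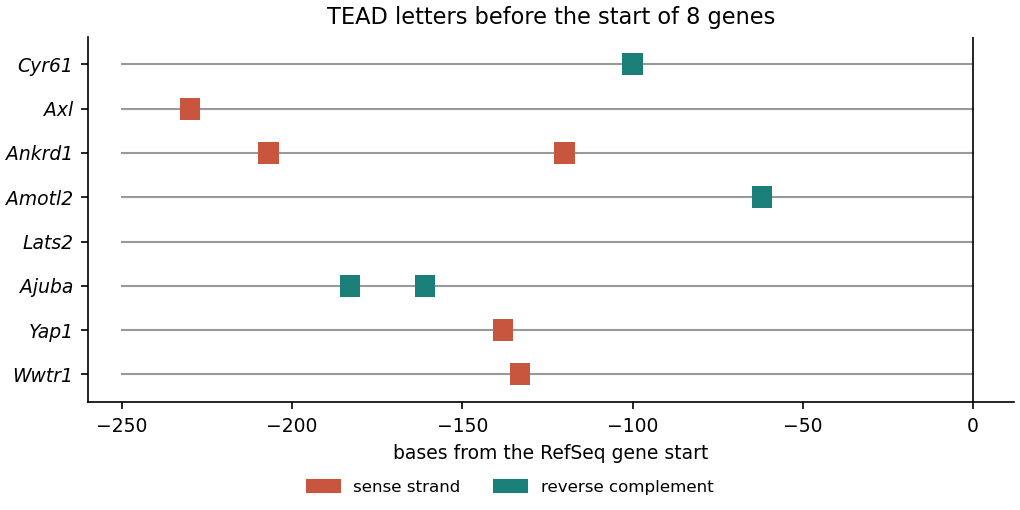
Position of the TEAD letters in the 250 bases before the RefSeq start of 8 genes (first entry of each), in bases from the start. Each block is 1 match on the sense strand or its reverse complement, and the blocks lie between 233 and 60 bases before the start, with none for Lats2.

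Levels are in FPKM, the fragments of a gene for each kilobase of its transcript and relative to all mapped fragments of the library. Levels can thus be compared between libraries, and between genes as far as the transcript lengths assumed and the division of overlapping reads allow. A difference is given as the difference in log2(FPKM + 1), and a gene was called past a fold when this difference reached the log2 of that fold and the gene was at 1 FPKM or more in either library. Lower cutoffs of 1.5-fold and of 0.32 on the log2 scale were also used. Library depth, read from low values, was estimated at 23000000 fragments for the control, 23700000 for NELL2 cells and 24200000 for siFn1 cells. At this depth the 10 genes had between 462 (Ajuba, siFn1) and 17700 (Ctgf, siFn1) estimated fragments per kilobase of transcript. Counting error was not computed and may be as large as the smallest differences below. The spread between cultures was not measured and no difference below has a test. Where 3 values follow each other, they are for control, NELL2 and siFn1 cells in that order. Nell2 was at 0.640, 326 and 1.06 FPKM and Fn1 at 2802, 2489 and 137 FPKM in the 3 libraries, both in the direction of the labels. All 8 stromal markers were at 1 FPKM or more, with a summed level of 2610 to 3034 FPKM. The blood, endothelial, epithelial, adipocyte and osteoblast markers summed to 4.56 FPKM or less for each class in each library, and Tie1, Epcam and Krt14 were listed at 0 in each. The sum of the blood markers was 4.55, 4.56 and 1.88 FPKM, most of it Cd68, and Itgam of that class gave no value. Sp7 made up most of the osteoblast sum, at 4.13, 3.91 and 3.72 FPKM. The part of other cells in the differences below was not tested.

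All 10 genes were expressed in all 3 libraries, and Ctgf, Cyr61 and Axl stood highest. In the control library the order by level was Ctgf, Cyr61, Axl, Amotl2, Ankrd1, Yap1, Wwtr1, Lats2, Tead1 and Ajuba. Ctgf ranked 90 and Cyr61 ranked 140 among all rows of the table, while Ajuba ranked 3511. Neighbours in this order such as Ankrd1 and Yap1 (56.6 and 54.7 FPKM) or Wwtr1 and Lats2 (32.8 and 31.7 FPKM) lay close together, and with 1 library no spread can be set against their differences.

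**Figure D2:**
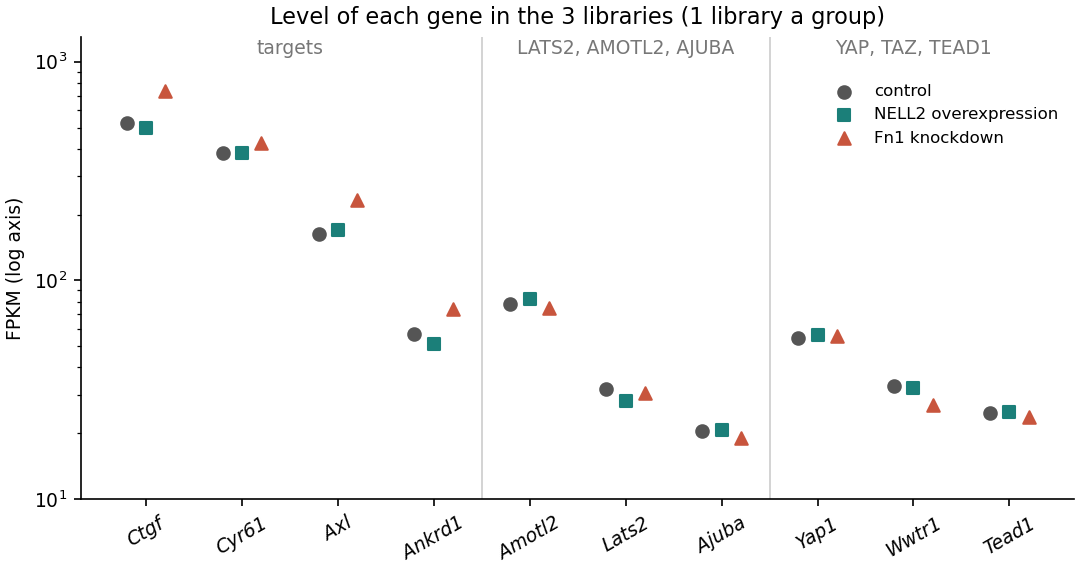
FPKM (log axis) of the 10 genes by library (control, NELL2 overexpression, Fn1 knockdown), 1 point for each library and no error bars, since each group has 1 library. Ctgf, Axl and Ankrd1 sit highest in the Fn1 knockdown library, Wwtr1 sits lowest there, and the other points of each gene lie close together.

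The secreted targets were examined first. Ctgf encodes connective tissue growth factor, a matricellular protein of the CCN family and among the most used YAP readouts. It was at 527 FPKM in control cells, 496 FPKM in NELL2 cells and 733 FPKM in siFn1 cells. The siFn1 library thus stood apart from the other two, at 139% of the control (a log2 difference of 0.48), whereas the NELL2 library held 94.0% of the control level (-0.09). Of all 12574 genes compared, 4.83% were higher by at least as much in siFn1 cells, and of the 668 genes at 100 FPKM or more, 7.63% were. Ctgf (GRCm38 chromosome 10, 24595442 to 24598683, plus strand) shares 665 exonic bases with Gm15270, a transcript on the opposite strand, which was at 5.86, 4.96 and 9.01 FPKM. In bulk RNA, more cells with a high level and more RNA in each cell cannot be told apart, and likewise for lower values. Whether counting used strand is not stated, so reads of the pair cannot be told apart. Gm15270 was chosen after its values were seen.

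Cyr61 (GRCm38 chromosome 3, 145646976 to 145649981, minus strand) encodes the related secreted protein CCN1, which binds integrins. It was at 383, 380 and 424 FPKM in control, NELL2 and siFn1 cells. The control and NELL2 values were nearly equal (99.3%), and the siFn1 value was 111% of the control, a log2 difference of 0.14 that 26.2% of genes reached. The paired CCN targets therefore differed in the size of the difference, as Ctgf was at 137% of Cyr61 in the control, 130% in NELL2 cells and 173% in siFn1 cells.

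Axl encodes a receptor tyrosine kinase of the TAM family. It was at 163 FPKM in control cells, 170 FPKM in NELL2 cells and 233 FPKM in siFn1 cells. This was the largest difference from control among the 10 genes, at 143% of the control and a log2 difference of 0.51, which 4.08% of all genes compared and 6.44% of those at 100 FPKM or more reached in siFn1 cells. With NELL2 overexpression the difference was 0.06. Axl lies on GRCm38 chromosome 7, 25757273 to 25788705, on the minus strand.

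Ankrd1 (GRCm38 chromosome 19, 36111961 to 36120099, minus strand) encodes an ankyrin repeat protein of muscle and mesenchymal cells that acts in the nucleus and at the sarcomere. It was at 56.6, 51.2 and 74.2 FPKM in control, NELL2 and siFn1 cells. The NELL2 library was the lowest (90.5% of the control, -0.14) and the siFn1 library the highest (131%, 0.39), and 7.47% of genes were higher by at least as much in the latter. Like Ctgf, and unlike Axl, Ankrd1 was below the control in NELL2 cells.

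The regulators all lay within 0.32 of the control in both comparisons. Lats2 encodes the kinase that phosphorylates YAP and TAZ, and is itself a target, forming a feedback loop. It was at 31.7 FPKM in control cells, 28.1 FPKM in NELL2 cells and 30.4 FPKM in siFn1 cells. The NELL2 value, 88.6% of the control and a log2 difference of -0.17, was the farthest that any of the 10 genes lay from the control in that comparison, and 12.1% of all genes were lower by at least as much. Lats2 (GRCm38 chromosome 14, 57689662 to 57758388, minus strand) shares 42.4% of its exonic bases with Gm49361 on the same strand. Gm49361 is no row of the table, and how reads of shared exons were assigned is not given in the sources used here.

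Amotl2 (GRCm38 chromosome 9, 102716672 to 102733418, plus strand) encodes an angiomotin that binds YAP outside the nucleus, and is also a target. It was at 77.7, 82.6 and 74.8 FPKM, so the NELL2 library was slightly the highest (0.09) and the siFn1 library slightly the lowest (-0.05). Ajuba (GRCm38 chromosome 14, 54567472 to 54577558, minus strand) encodes a LIM protein that binds and restrains LATS kinases. Its levels of 20.4, 20.7 and 19.1 FPKM were the lowest of the 10 genes in each library and differed from the control by 0.02 and -0.09.

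Yap1 and Tead1 were the closest to the control over both comparisons. Yap1 (GRCm38 chromosome 9, 7931999 to 8004596, minus strand) stood at 54.7 FPKM in control cells, 56.4 FPKM in NELL2 cells and 55.5 FPKM in siFn1 cells, which are 103% and 101% of the control. Tead1 (GRCm38 chromosome 7, 112679318 to 112906807, plus strand) was at 24.7, 24.9 and 23.7 FPKM, which are 101% and 96.0% of the control. The sign of 2 of these differences, that of Tead1 in NELL2 cells and that of Yap1 in siFn1 cells, turned when libraries were scaled by their upper quartile.

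Wwtr1 (GRCm38 chromosome 3, 57455649 to 57575910, minus strand) differed from Yap1 in siFn1 cells. It was at 32.8 FPKM in control cells, 32.3 FPKM in NELL2 cells and 26.9 FPKM in siFn1 cells. The last value was 81.8% of the control (-0.28), the lowest relative value among the 10 genes, and 14.5% of all genes were lower by at least as much. As a share of Yap1, Wwtr1 was at 60.0% in control cells, 57.3% in NELL2 cells and 48.4% in siFn1 cells. The sum of both coactivators was 87.5, 88.7 and 82.4 FPKM.

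**Figure D3:**
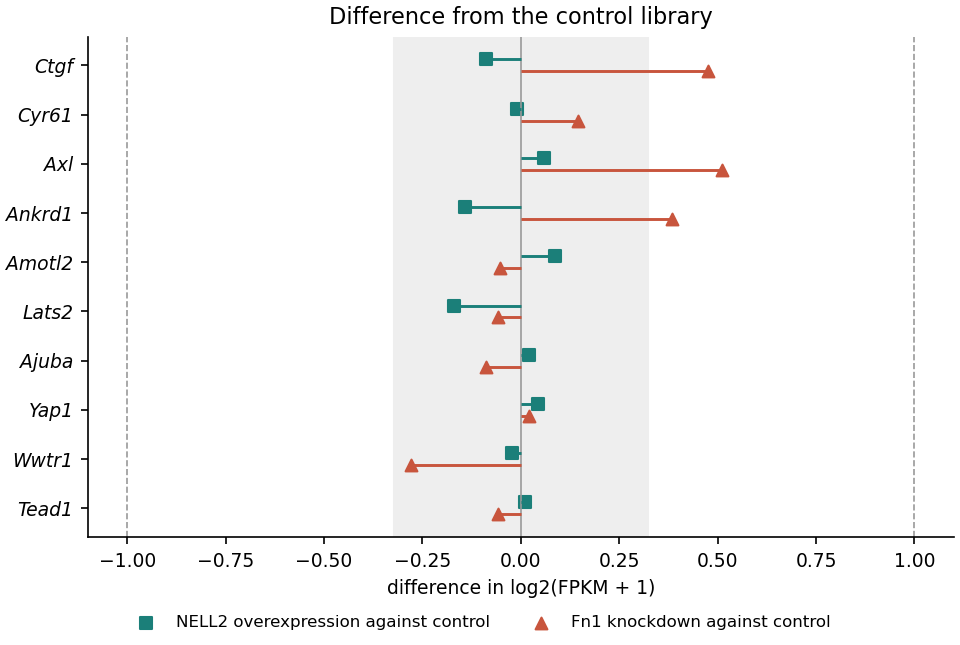
Difference in log2(FPKM + 1) from the control library for the 10 genes, with NELL2 overexpression (squares) and Fn1 knockdown (triangles). The grey band marks differences under 0.32 and the dashed lines mark 2-fold. Ctgf (0.48), Axl (0.51) and Ankrd1 (0.39) lie beyond the band in the Fn1 knockdown library, and no point reaches 2-fold.

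Counts over the 10 genes were then set beside those over all genes. No gene of the 10 was called at 2-fold in any comparison, where 0.652% of 12572 genes were called in NELL2 cells, 1.23% of 12574 in siFn1 cells, and 1.29% of 12596 between siFn1 and NELL2 cells. A count of 0 of 10 is near these shares. At 1.5-fold there was again none, against 1.54% of all genes higher and 1.05% lower in NELL2 cells, 2.92% higher and 3.32% lower in siFn1 cells, and 2.84% higher and 3.56% lower between these libraries. Past 0.32, 0 of 10 were called in NELL2 cells, where 5.5% of all genes were higher and 4.05% lower. After Fn1 knockdown 3 of 10 were called higher and 0 lower, where 10.2% of all genes were higher and 12% lower. The 3 genes were Ctgf, Ankrd1 and Axl, and Wwtr1, at -0.28, stood just inside the cutoff.

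The median log2 difference over the 10 genes was 0.00029 in NELL2 cells and -0.016 in siFn1 cells, close to those of 0.0071 and -0.0030 over all 12733 genes at 1 FPKM or more in at least 1 library. In siFn1 cells Ctgf, Cyr61, Axl and Ankrd1 were all higher (median 0.43), beside 49.5% of all genes above 0. Of the 6 others 5 were lower (median -0.058), with Yap1 the exception. Of all genes, 26.2% were higher by at least as much as Cyr61. Between 35.7% and 41.4% were lower by at least as much as Ajuba, Tead1, Lats2 or Amotl2. Lats2 (-0.059) and Amotl2 (-0.053), which are also known targets, were among the 5, but differences this small give no reading on target status. With NELL2 overexpression the medians of these 4 and 6 genes were -0.050 and 0.016.

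The siFn1 library was also compared directly with the NELL2 library, so that each comparison above shares a library with this one. Past 0.32, Ctgf (148%, 0.56), Ankrd1 (145%, 0.53) and Axl (137%, 0.45) were higher in the siFn1 library and 0 of 10 were lower, where 9.17% of all genes were higher and 12.6% lower. For Ctgf and Ankrd1 this difference was larger than that from the control, since both were below the control in NELL2 cells. Of all genes, 3.06% were higher by at least as much as Ctgf and 3.58% as Ankrd1. The other 7 genes lay between -0.26 (Wwtr1) and 0.16 (Cyr61). Among genes whose promoter stretch is printed above, Axl and Ankrd1 were past 0.32 while Cyr61, Amotl2, Ajuba, Yap1 and Wwtr1 were not, so a match was present on both sides of the cutoff.

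**Figure D4:**
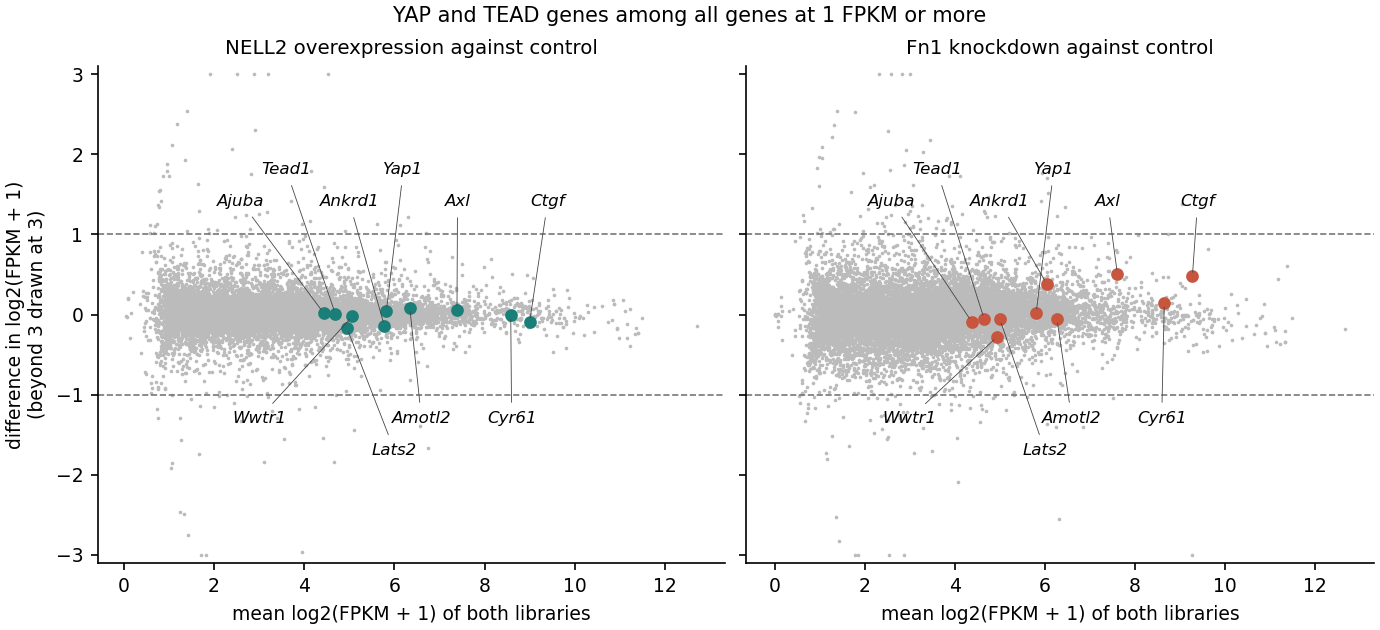
Difference in log2(FPKM + 1) against the mean log2(FPKM + 1) of both libraries, for NELL2 overexpression (left) and Fn1 knockdown (right) against control. Grey points are genes at 1 FPKM or more in at least 1 library, coloured points are the 10 genes, and dashed lines mark 2-fold. The 10 genes lie within the grey cloud on the left, and Ctgf, Axl and Ankrd1 lie toward its upper edge on the right.

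A wider list of 22 conserved YAP and TAZ targets, which includes Ctgf, Cyr61, Ankrd1, Axl, Amotl2 and Lats2, was examined next. All 22 were at 1 FPKM or more. In siFn1 cells 7 were called higher past 0.32 and 0 lower, beside 10.2% and 12% of all genes, and 3 were higher at 1.5-fold, beside 2.92%. The median was 0.12, with 15 genes above 0 and 7 below, beside -0.0030 and 49.5% above 0 over all genes. Without the 6 genes already described, the median of the other 16 was 0.092, with 4 higher past 0.32 and 0 lower.

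The 4 were Nt5e, Igfbp3, F3 and Crim1. Nt5e, which encodes the surface enzyme CD73 that makes adenosine, was at 2.17 FPKM in control cells, 2.47 FPKM in NELL2 cells and 10.1 FPKM in siFn1 cells, a fold of 4.64 in FPKM and a log2 difference of 1.81. It was the only gene of the list called at 2-fold, beside 1.23% of all genes. Igfbp3, an IGF binding protein, was at 8.03, 9.11 and 15.1 FPKM (0.84 in siFn1 cells), and F3, tissue factor of the clotting cascade, was at 130, 125 and 214 FPKM (0.72). Crim1, a membrane protein that binds BMPs, was at 25.8, 24.5 and 35.7 FPKM (0.45). In these 4 genes the siFn1 value stood apart while the control and NELL2 values were close.

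Most of the other targets on the list were near the control. Myof, Ccdc80, Rbms3, Dock5, Tgfb2 and Foxf2 differed by 0.01 to 0.17 in siFn1 cells, Gadd45a by 0.29, and Ptpn14, Nuak2, Arhgef17, Asap1 and Fjx1 by -0.08 to -0.18. With NELL2 overexpression none of the 22 reached 0.32, beside 5.5% of all genes higher and 4.05% lower. The values ran from -0.21 (Fjx1) to 0.16 (Igfbp3), and the median was -0.040 with 14 genes below 0, beside 0.0071 over all genes. In the 250 bases before the start, 2 of the 10 genes of the list with a RefSeq entry that had not been described above held the TEAD letters, a share of 20% against 14.4% of all genes with an entry.

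**Figure D5:**
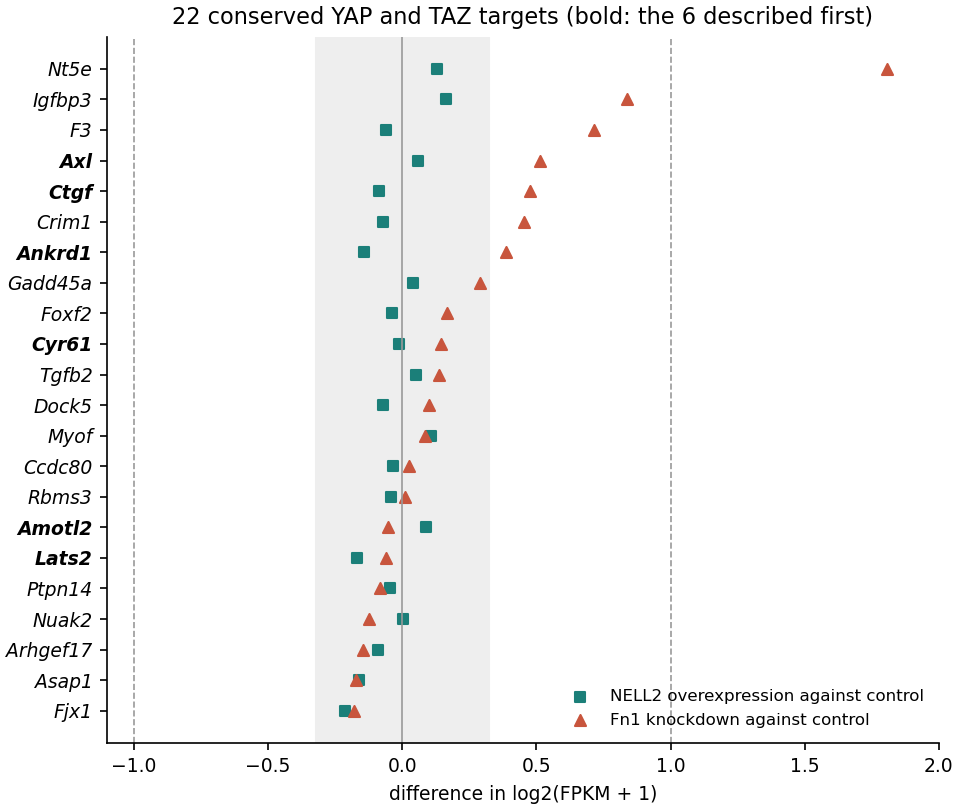
Difference in log2(FPKM + 1) from the control library for 22 conserved YAP and TAZ targets, ordered by the Fn1 knockdown value. Squares are NELL2 overexpression, triangles are Fn1 knockdown, the grey band marks differences under 0.32 and dashed lines mark 2-fold. All squares lie in the band, 7 triangles lie to its right, and Nt5e (1.81) lies beyond 2-fold.

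Among DNA-binding partners, Tead1 was the most abundant of its family. Tead2 was at 10.4, 13.3 and 10.6 FPKM, Tead3 at 8.48, 10.1 and 11.6 FPKM, and Tead4 at 2.96, 2.61 and 4.25 FPKM in control, NELL2 and siFn1 cells. Tead2 was past 0.32 in NELL2 cells (0.33), and Tead3 and Tead4 were past it in siFn1 cells (0.41 each), beside 5.5% and 10.2% of all genes higher. The share of Tead1 in the summed FPKM of the family was thus 53.1% in control cells, 48.9% in NELL2 cells and 47.2% in siFn1 cells. Of the Vestigial-like cofactors, which compete with YAP for TEAD, Vgll3 (67.8, 66.6 and 78.8 FPKM) was the most abundant and Vgll4 was at 17.9, 20.1 and 20.9 FPKM. Vgll1 was listed at 0 in all 3 libraries and Vgll2 was at 0.08 FPKM or less. The median over the 6 of 8 genes of this list at 1 FPKM or more was 0.082 in NELL2 cells and 0.21 in siFn1 cells. The former was 0.15 with a filter at 5 FPKM and 0.011 with no filter.

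The other CCN genes stood on both sides of the control. Nov (CCN3) was at 26.8 FPKM in control cells, 21.3 FPKM in NELL2 cells and 13.4 FPKM in siFn1 cells. The siFn1 value was a fold of 0.499 in FPKM and a log2 difference of -0.95, short of the 2-fold call through the added 1 FPKM. Nov was the only CCN gene past 1.5-fold, as were 3.32% of all genes in that direction. Wisp1 (44.7, 46.1 and 44.5 FPKM) and Wisp2 (95.0, 111 and 97.8 FPKM) were nearer the control, and Wisp3 was at or near 0. Over the 5 expressed CCN genes the median was -0.011 in NELL2 cells and 0.041 in siFn1 cells, with Ctgf higher and Nov lower past 0.32 in the latter, beside 10.2% and 12% of all genes. Ctgf and Nov therefore lay on opposite sides of the control in siFn1 cells.

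Amot was at 60.3, 61.8 and 47.1 FPKM (-0.35 in siFn1 cells) and Amotl1 at 17.9, 18.8 and 18.0 FPKM. Limd1 and Wtip, relatives of Ajuba, were at 7.42, 8.99 and 8.66 FPKM and at 11.6, 12.3 and 9.09 FPKM. All 6 angiomotin and Ajuba genes were above the control in NELL2 cells (median 0.078), beside 52.3% of all genes (median 0.0071). None of the 6 was past 0.32, which is near the 5.5% higher and 4.05% lower of all genes. In siFn1 cells the median was -0.071 with Amot lower past 0.32, as were 12% of all genes. Among TAM receptors and ligands, Tyro3 was at 10.5, 8.33 and 6.10 FPKM (-0.70 in siFn1 cells, past 1.5-fold as were 3.32% of all genes lower), opposite in direction to Axl, whereas Mertk was at 2.48, 2.28 and 2.52 FPKM. Gas6, the ligand of Axl and the most abundant gene of this list after Axl, was at 78.8, 75.0 and 66.6 FPKM (-0.24). The median of the 5 TAM genes was -0.070 in NELL2 cells and 0.019 in siFn1 cells, and these became -0.019 and -0.11 when a filter at 5 FPKM left out Mertk.

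Of 28 Hippo kinases and scaffolds, 27 were at 1 FPKM or more, led by Map4k4 (74.6, 74.6 and 75.7 FPKM), a kinase that acts on LATS. The median was -0.039 in NELL2 cells and 0.021 in siFn1 cells, the latter turning to -0.0016 with upper quartile scaling. After Fn1 knockdown 2 of the 27 were higher and 4 lower past 0.32, which is near the 10.2% and 12% of all genes. The lowest were Mob1a, the LATS coactivator (20.9, 16.1 and 12.6 FPKM, -0.69), and Frmd6, an upstream scaffold (52.5, 58.3 and 34.0 FPKM, -0.61), both past 1.5-fold, beside 3.32% of all genes lower. Lats1, the paralog of Lats2, was at 14.1, 14.2 and 14.7 FPKM, and Lats2 was at 226%, 198% and 207% of it.

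Among 7 genes for 14-3-3 proteins, which hold phosphorylated YAP in the cytoplasm, 3 were higher and 0 lower past 0.32 in siFn1 cells, beside 10.2% and 12% of all genes. Ywhaq was at 84.4, 78.6 and 151 FPKM (0.83) and Sfn at 32.6, 29.3 and 51.3 FPKM (0.64), both past 1.5-fold as were 2.92% of all genes, and Ywhag was at 125, 131 and 177 FPKM (0.50). Ywhae, the most abundant, was at 221, 205 and 216 FPKM. The median over the 7 was 0.25 in siFn1 cells and -0.10 in NELL2 cells.

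Ctgf, Cyr61 and Ankrd1 are also known as responders to the actin-sensing factors SRF and MRTF, and 15 genes of that programme were compared. With NELL2 overexpression 14 of 15 were below the control (median -0.13), beside 6080 of all 12733 genes (median 0.0071). Past 0.32 there were 4 lower, beside 4.05% of all genes. Acta2, the smooth muscle actin and the most abundant of the list, was at 1027 FPKM in control cells, 768 FPKM in NELL2 cells and 1227 FPKM in siFn1 cells. After Fn1 knockdown the median was -0.025, with 0 higher and 2 lower past 0.32, beside 10.2% and 12% of all genes. Vcl, encoding vinculin at focal adhesions, was at 188, 142 and 70.5 FPKM (-1.40) and was the one called at 2-fold, beside 1.23% of all genes. Acta2 thus followed the order of Ctgf and Ankrd1 over the libraries, as did Tagln, Cnn2, Tpm1 and Cald1. Of these, Tagln and Tpm1 lay only 0.03 and 0.01 above the control in siFn1 cells. Vcl and the rest of the 15 did not follow that order.

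The genes most like Axl, which had the largest difference from control among the 10, were sought among 6140 other genes at 10 FPKM or more in the control, by Euclidean distance in the pair of log2 differences from control. They were Tnc, Tob2, Kremen1, Ywhag and Ssr1, at distances of 0.0062 to 0.025, and 74 genes lay within 0.1. Tnc, encoding the matrix protein tenascin-C, was at 278, 291 and 398 FPKM. Likeness over 3 libraries rests on few values.

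No selection of transfected cells is described, and the time from transfection to RNA isolation is not given for these libraries in the sources used here.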

How the data were processed

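RNA from 3 cultures of ST2 cells was enriched for poly(A) and sequenced by the authors from both ends (MGISEQ-2000). The submitters' processing notes name HISAT2, DESeq and the build GRCm38. The deposited values are FPKM per gene name, 1 column a library. The program that computed FPKM and the annotation are not given in the sources used here. The paper mentions strand for the alignment with HISAT2, but not whether counting used it. FPKM depends on the transcript length assumed and on how reads of overlapping genes were divided.

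Differences in log2(FPKM + 1) were computed across all genes in Python 3.11.15 with pandas 2.3.3 and numpy 2.4.6. A gene was called at 2-fold, with 1.5-fold and 0.32 (log2) cutoffs as alternatives, when at 1 FPKM or more in either library. With 1 library in each group, no test was applied. The calling code was tested on simulated data. Medians over the 8 lists covered genes whose name was on 1 row and whose level was 1 FPKM or more somewhere. Depth was estimated from genes with 1 transcript of at least 600 bases in GENCODE M21 (GRCm38), where low FPKM times length peaks at the worth of 1 fragment. The peak held between 19.7% and 22.7% of low values, so fragment numbers are estimates. GENCODE M21 also gave the gene positions and exon overlaps.

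The genes and lists were chosen with earlier results of these data known. Genes named were Nell2, Fn1, the 10 genes, and from each list those past 1.5-fold in any comparison, the most abundant in the control and the families of the 10 genes. Other targets and list genes were named after their values were seen, as were the genes just past 0.32.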

Additional observations from a re-analysis of the deposited data

How the results depend on the processing

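Alternatives were pseudocounts of 0.1 and 5 FPKM, no filter, a filter at 5 FPKM, median-of-ratios and upper quartile scaling, and cutoffs of 1.5-fold and of 0.32 (log2). The count of the 10 genes called was 0 in each comparison and stayed 0 under 22 of 24 alternative values. The exceptions were the 0.32 cutoff, which called 3 after Fn1 knockdown against control and 3 against NELL2 overexpression. All 120 alternative log2 differences of single genes lay within 0.0322 of those reported, and 2 near 0 changed sign under upper quartile scaling, Tead1 with NELL2 overexpression (-0.0009) and Yap1 after Fn1 knockdown (-0.0015). Of 144 alternative list medians, 143 moved by less than 0.1. The TAM receptor and ligand median after Fn1 knockdown went from 0.019 to -0.11 with the filter at 5 FPKM, which leaves out Mertk. The CCN median between Fn1 knockdown and NELL2 overexpression turned from -0.049 to 0.013 with no filter, which adds Wisp3, and the Hippo list median after Fn1 knockdown to -0.0016 with upper quartile scaling. Scaling factors lay between 0.992 and 1.01, so scaling tests little. No paired analysis was possible because the design has a single culture of each kind, and leaving out a library would remove the comparisons that use it and leave the third as it is. Genes near 1 FPKM have few fragments, and their differences are the least certain.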
